A study of Mus musculus with 10 samples.

Results

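Chromatin accessibility was examined at the genes of the E proteins and their Id antagonists in thymic invariant natural killer T (iNKT) cells. The 5 genes were Id2, Id3, Tcf3 (encoding E2A), Tcf4 (encoding E2-2) and Tcf12 (encoding HEB). Regions were taken from the deposited count table if they overlapped the body of 1 of these genes or lay within 50 kb of its annotated start. This rule kept 72 of 94823 regions, 16 at Id2, 20 at Id3, 11 at Tcf3, 14 at Tcf4 and 11 at Tcf12, and no region was assigned to more than 1 of the genes.

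The assay was ATAC-seq, which counts where a transposase can cut into DNA, and the number of its insertions in a region is the measure of accessibility. There were 10 libraries, 2 of iNKT1 cells and 3 of iNKT2 cells from each of BALB/c and SKG mice, and these 4 groups are compared. SKG mice share the BALB/c background and carry a hypomorphic allele of Zap70, the kinase directly below the T cell receptor (TCR), in all cells and not in iNKT cells alone. All mice were 8 to 10 weeks old, and the labels name no treatment. iNKT1 cells were sorted as CD27+ CD122+ and iNKT2 cells as CD27+ CD122-, so that each subset is a gate on surface proteins. The labels do not say whether replicate libraries came from separate animals, and the p-values measure only the spread between these libraries, which may be technical. In such bulk libraries, a region open in fewer cells and a region less open in each cell cannot be told apart.

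E proteins are basic helix-loop-helix factors that bind E-box sequences as dimers and drive the early T cell programme. Id proteins have the helix-loop-helix but no basic region, so a dimer of an Id protein and an E protein cannot bind DNA. TCR signals induce Id3 in thymocytes, HEB is required for iNKT cells to arise from double-positive thymocytes, and Id2 and Id3 are both known as regulators of the iNKT subsets.

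Distances below are from the annotated gene start to the nearest edge of a region, in kb, negative upstream and positive in the direction of transcription. Levels are CPM, insertions divided by the library total and set to the usual per-million scale, with the total scaled by its TMM factor (a correction for library composition). A region was called where the quasi-likelihood test of edgeR across all 94823 regions gave a Benjamini-Hochberg adjusted p under 0.01 and the estimated change was at least 4-fold. A region under that p, with or without the fold, is said to have passed. All coordinates are mm10, and features come from GENCODE M21.

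The sequences of 7 regions are printed here. They are part of an intronic group at Tcf12 that was open in iNKT1 and a distant Tcf12 intron that was open in iNKT2. The others are some of the upstream Id3 regions that were lower in SKG and a downstream Id3 region that was open in iNKT1. Each line gives the central 300 bases, read from the plus strand of GRCm38.p6, 5′ to 3′. Capitals mark matches on either strand to 7 strings: the E-boxes CAGCTG and CAGGTG, the T-box string AGGTGTGA, the Runt string TGTGGTTT, the Egr string GCGTGGGCG, the NFAT string TGGAAAA and the Tcf/Lef string CTTTGAA, bound by HMG-box factors that are unrelated to the E proteins in spite of the shared name Tcf. AGGTGTGA and CAGGTG can overlap.
Tcf12 +14.4 kb, intron, chr9:72097124-72097423: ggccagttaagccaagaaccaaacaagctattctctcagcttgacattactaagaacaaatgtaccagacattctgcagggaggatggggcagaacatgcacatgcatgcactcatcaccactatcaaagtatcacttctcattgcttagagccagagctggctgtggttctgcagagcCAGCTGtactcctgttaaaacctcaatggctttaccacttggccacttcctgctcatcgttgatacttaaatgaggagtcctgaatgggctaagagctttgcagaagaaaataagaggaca
Tcf12 +13.5 kb, intron, chr9:72098102-72098401: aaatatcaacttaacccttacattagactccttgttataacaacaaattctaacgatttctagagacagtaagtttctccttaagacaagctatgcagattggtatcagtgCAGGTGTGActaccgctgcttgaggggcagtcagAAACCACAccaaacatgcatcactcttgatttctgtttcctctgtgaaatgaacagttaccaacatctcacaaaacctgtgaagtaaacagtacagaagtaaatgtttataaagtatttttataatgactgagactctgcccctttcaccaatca
Tcf12 +237.1 kb, intron, chr9:71874299-71874598: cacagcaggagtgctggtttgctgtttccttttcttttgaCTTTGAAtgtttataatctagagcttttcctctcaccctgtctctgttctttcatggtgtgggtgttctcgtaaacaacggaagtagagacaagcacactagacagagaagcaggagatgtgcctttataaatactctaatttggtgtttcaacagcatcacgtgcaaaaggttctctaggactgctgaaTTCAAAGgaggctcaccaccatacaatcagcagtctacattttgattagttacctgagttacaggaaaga
Id3 -36.3 kb, outside genes, chr4:136106787-136107086: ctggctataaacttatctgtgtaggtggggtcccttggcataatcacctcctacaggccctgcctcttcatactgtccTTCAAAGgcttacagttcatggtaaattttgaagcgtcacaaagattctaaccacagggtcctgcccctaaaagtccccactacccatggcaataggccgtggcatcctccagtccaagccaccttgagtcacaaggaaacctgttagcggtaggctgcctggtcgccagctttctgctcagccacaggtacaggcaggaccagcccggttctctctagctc
Id3 -26.1 kb, outside genes, chr4:136117073-136117372: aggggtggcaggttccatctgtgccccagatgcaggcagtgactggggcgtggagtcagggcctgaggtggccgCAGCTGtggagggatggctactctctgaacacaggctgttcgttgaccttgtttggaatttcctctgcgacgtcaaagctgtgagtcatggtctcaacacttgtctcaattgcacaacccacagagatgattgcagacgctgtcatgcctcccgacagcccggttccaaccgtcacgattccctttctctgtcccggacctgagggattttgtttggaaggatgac
Id3 -20.1 kb, outside genes, chr4:136123094-136123393: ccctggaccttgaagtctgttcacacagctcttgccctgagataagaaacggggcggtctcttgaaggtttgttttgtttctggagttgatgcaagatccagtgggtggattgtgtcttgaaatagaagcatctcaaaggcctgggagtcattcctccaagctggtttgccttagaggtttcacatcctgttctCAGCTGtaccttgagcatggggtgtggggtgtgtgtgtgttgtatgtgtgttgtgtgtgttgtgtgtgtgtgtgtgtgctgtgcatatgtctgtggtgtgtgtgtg
Id3 +37.0 kb, in E2f2, chr4:136180491-136180790: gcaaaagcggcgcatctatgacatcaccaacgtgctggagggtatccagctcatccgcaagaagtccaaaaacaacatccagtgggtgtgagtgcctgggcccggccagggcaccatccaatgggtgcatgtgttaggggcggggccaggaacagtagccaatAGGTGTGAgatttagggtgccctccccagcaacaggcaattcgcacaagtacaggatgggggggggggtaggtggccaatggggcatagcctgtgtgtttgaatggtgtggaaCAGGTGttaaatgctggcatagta

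The Tcf12 +13.5 kb sequence held a T-box string that overlaps a CAGGTG E-box, and a Runt string on the other strand. The Tcf12 +237.1 kb sequence held 2 Tcf/Lef strings and no CAGCTG or CAGGTG. The Id3 -47.4 kb region, also lower in SKG, is not among the printed sequences. Its central 300 bases held 1 NFAT string, 2 CAGGTG E-boxes and 1 Tcf/Lef string. No other of the 20 Id3 regions held an NFAT string. Over the central 300 bases of the 72 regions, CAGCTG occurred in 17 (23.6%, against 17.4% of all 94823 regions) and CAGGTG in 18 (25.0% against 22.7%). Id3 accounted for 8 of the 17 and 9 of the 18. The general E-box CANNTG, of which both are forms, occurred in 56 (77.8% against 78.7%), the T-box string in 2 (2.78% against 1.91%), the Runt string in 4 (5.56% against 5.74%), the NFAT string in 5 (6.94% against 6.54%), the Tcf/Lef string in 8 (11.1% against 7.74%) and the Egr string in 0 (against 0.345%). A match is a string of letters and not a measured binding site.

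Library totals, counted inside the listed regions, ran from 14988590 to 36342635 insertions, with 40 to 120 insertions in the median region. The floor of 3 insertions lay between 0.0794 and 0.202 CPM. Pearson's r of log2 levels was 0.968 to 0.991 within groups. The start regions of 4 iNKT1 genes (Tbx21, Il2rb, Cxcr3 and Ifng) summed to 196 to 220 CPM in the iNKT1 libraries and 43.8 to 63.8 in the iNKT2 libraries, and those of 4 iNKT2 genes (Il17rb, Ccr7, Il6ra and Il4) to 45.5 to 60.1 and 71.9 to 128, although Il4 alone was not higher in iNKT2. Those of Cd3e, Cd3d and Zbtb16, shared by iNKT cells, summed to 58.0 to 94.3 CPM. The iNKT17 genes Il23r, Il1r1 and Ccr6 summed to 0.0642 to 0.642 CPM in iNKT1 and 9.03 to 13.4 in iNKT2, so that their openness moved with every subset difference below; their part in those differences was not tested. No region lay at the starts of Rag1, Rag2, Ptcra and Cd8b1 (double-positive thymocytes), Cd79a and Ms4a1 (B cells), Lyz2 and Csf1r (myeloid cells) or Klrb1c (NK cells). Itgam reached at most 3.91 CPM, and the NK cell gene Ncr1 was at 2.16 to 2.27 in BALB/c iNKT1, 0.449 to 0.514 in SKG iNKT1 and at most 0.135 in iNKT2. Replicate 1 of SKG iNKT2 had the highest iNKT1 sum of the iNKT2 libraries, and replicate 1 stood apart from replicates 2 and 3 in both iNKT2 groups.

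Id2, Id3, Tcf3 and Tcf12 had fewer insertions in iNKT2 than in iNKT1 when all regions of each gene were summed, in both genotypes, and Tcf4 did not pass. Of these calls, those of Id2 were kept on library totals without TMM, where the other 3 genes did not pass in either genotype and Tcf4 passed higher in BALB/c. Across 18088 protein-coding genes with a region, 54.1% passed the same test in BALB/c and 28.7% in SKG, so that passing is common. By group mean, the order from high to low was SKG iNKT1, BALB/c iNKT1, SKG iNKT2 and BALB/c iNKT2 for Id2 and Tcf3. For Id3 and Tcf12, BALB/c iNKT1 came just above SKG iNKT1, and BALB/c iNKT2 was above SKG iNKT2 at Id3 and below it at Tcf12. Tcf4 had the opposite order of Id3, from SKG iNKT2 down to BALB/c iNKT1.

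Id2, an Id protein high in innate-like lymphocytes, lies on chr12:25093799-25097140 on the minus strand (ENSMUSG00000020644). Its sum was 277 and 239 CPM in the BALB/c iNKT1 libraries, 296 and 267 in SKG iNKT1, 155, 143 and 149.9 in BALB/c iNKT2 and 171, 178 and 171 in SKG iNKT2. All iNKT1 libraries lay above all iNKT2 libraries, the iNKT1 groups overlapped, and the iNKT2 groups did not. The log2 change from iNKT1 to iNKT2 was -0.79 ± 0.08 (SE) in BALB/c (adjusted p = 3.5e-05) and -0.70 ± 0.09 in SKG (adjusted p = 1.4e-04). Between genotypes, the change was 0.12 ± 0.09 in iNKT1 (adjusted p = 0.81) and 0.21 ± 0.08 in iNKT2 (adjusted p = 0.049), which passed when same-numbered libraries were paired (0.21, adjusted p = 1.9e-03, in a fit with 2 residual degrees of freedom). That pairing was taken from these same libraries and not from the labels, so the pass is no separate evidence.

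Id3, the Id protein induced by TCR signals, lies on chr4:136143497-136145755 on the plus strand (ENSMUSG00000007872). Its sum was 187 and 186 CPM in BALB/c iNKT1, 181 and 186 in SKG iNKT1, 128, 108 and 113 in BALB/c iNKT2 and 123, 85.5 and 85.2 in SKG iNKT2. iNKT1 was above iNKT2 in every library, and the genotypes overlapped within both subsets. Of its 20 regions, 10 lay nearest to the start of Id3 itself. The sum also takes in regions at or inside the downstream gene E2f2, whose means were all lower in iNKT2 in both genotypes. The Id3 start region (+0.1 kb) changed by -0.01 ± 0.15 in BALB/c and -0.33 ± 0.15 in SKG, neither passing. The change of the sum from iNKT1 to iNKT2 was -0.68 ± 0.15 in BALB/c (adjusted p = 2.3e-03) and -0.90 ± 0.15 in SKG (adjusted p = 9.3e-04). The BALB/c call was lost without either BALB/c iNKT1 library (-0.64 without replicate 1, -0.68 without replicate 2) or without BALB/c iNKT2 replicate 2 (-0.56) or 3 (-0.59), and the SKG call without SKG iNKT1 replicate 2 (-0.89). Without TMM the changes were -0.39 and -0.71, and DESeq2 gave -0.41 in BALB/c, none passing. In iNKT2 the change from BALB/c to SKG was -0.24 ± 0.14 (adjusted p = 0.17). It passed in the paired fit, whose pairs were taken from these same data (-0.26, adjusted p = 6.9e-04), and without SKG iNKT2 replicate 1 (-0.45).

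Tcf3, whose E2A products are E proteins of all lymphocyte lineages, lies on chr10:80409514-80433647 on the minus strand (ENSMUSG00000020167). It had sums of 267 ± 12.3 (SD, n = 2) CPM in BALB/c iNKT1, 288 ± 12.0 (n = 2) in SKG iNKT1, 173 ± 4.28 (n = 3) in BALB/c iNKT2 and 223 ± 10.2 (n = 3) in SKG iNKT2. No group overlapped another, and Tcf3 was the only one of the 5 genes whose sum passed between genotypes in the fit of all 10 libraries, higher in SKG than in BALB/c iNKT2 (0.37 ± 0.07, adjusted p = 3.1e-03). In this comparison 18.1% of genes passed. The call was lost without BALB/c iNKT1 replicate 1 (0.33), BALB/c iNKT2 replicate 2 (0.31) or 3 (0.33) or SKG iNKT2 replicate 3 (0.38). The change from iNKT1 to iNKT2 was -0.63 ± 0.07 in BALB/c (adjusted p = 5.0e-05) and -0.37 ± 0.07 in SKG (adjusted p = 2.5e-03), the latter lost without SKG iNKT1 replicate 1 (-0.33) or 2 (-0.41) or SKG iNKT2 replicate 2 (-0.34) or 3 (-0.35). Without TMM the subset changes were -0.35 and -0.19 and the iNKT2 genotype change 0.24, none passing, as were the DESeq2 values of -0.23 in SKG and 0.21 between genotypes. The difference between the subset changes did not pass (0.26 ± 0.10, adjusted p = 0.15). Of its 11 regions, 5 lay nearest to the start of Tcf3 itself, and the region with the most insertions, at +33.7 kb, held the start of Mbd3. Of the sums above, that region alone gave means of 136 CPM in BALB/c iNKT1 and 154 in SKG iNKT1. In iNKT2 it gave 90.8 in BALB/c and 116 in SKG, so the sum and its changes do not stand for Tcf3 alone.

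Tcf12, whose HEB product pairs with E2A in thymocytes, lies on chr9:71842688-72111871 on the minus strand (ENSMUSG00000032228) and had sums of 129 ± 9.35 CPM in BALB/c iNKT1, 128 ± 7.44 in SKG iNKT1, 67.9 ± 3.99 in BALB/c iNKT2 and 72.2 ± 16.1 in SKG iNKT2. The subsets did not overlap, and the genotypes overlapped in both. The change was -0.93 ± 0.15 in BALB/c (adjusted p = 3.7e-04), lost without BALB/c iNKT1 replicate 1 (-0.82), and -0.82 ± 0.15 in SKG (adjusted p = 1.9e-03), lost without SKG iNKT1 replicate 1 (-0.76) or 2 (-0.88). Without TMM neither passed (-0.65 and -0.63). Tcf4, on chr18:69343356-69689079 on the plus strand (ENSMUSG00000053477), encodes the E protein known for plasmacytoid dendritic cells. Its sums were 71.6 ± 1.33, 80.4 ± 3.91, 87.6 ± 13.2 and 93.3 ± 13.8 CPM in the same order, and neighbouring groups in that order overlapped except the 2 iNKT1 groups. The subsets overlapped in SKG. In BALB/c they did not, with iNKT2 (73.1 to 99.0 CPM) just above iNKT1 (70.7 to 72.5). The change did not pass in BALB/c (0.29 ± 0.15, adjusted p = 0.11) or SKG (0.21 ± 0.15, adjusted p = 0.28), and in BALB/c it passed without TMM (0.56) and by DESeq2 (0.54). No member sum passed between genotypes in iNKT1, where 0.652% of genes did. The panels of summed CPM by library show these levels.

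**Figure D1:**
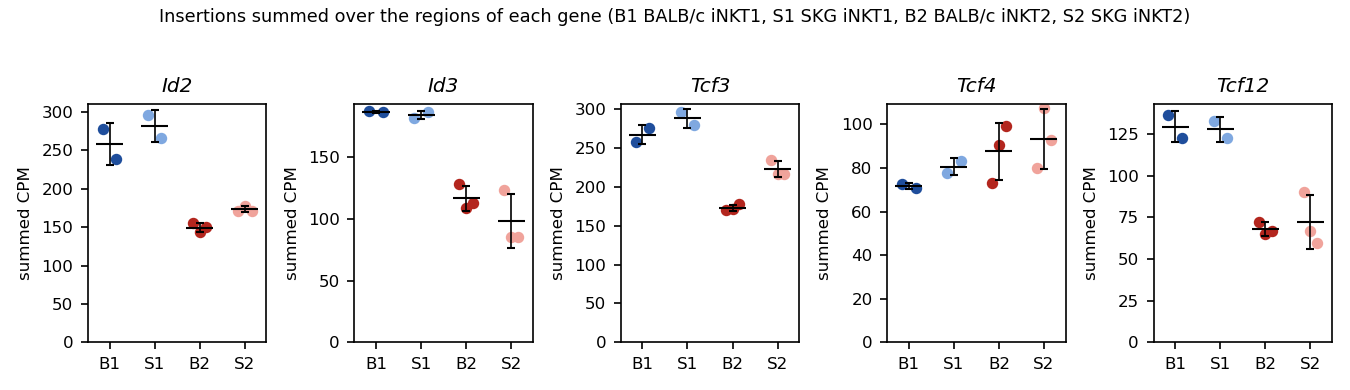
Summed CPM over all regions of each gene (vertical axis, from 0) in each library; points are libraries, horizontal lines group means and bars SD (n = 2 for iNKT1 groups, n = 3 for iNKT2 groups). Id2, Id3, Tcf3 and Tcf12 are higher in all iNKT1 libraries than in all iNKT2 libraries, and Tcf4 is not.

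Region by region, the comparison of the subsets asks which elements of these genes distinguish iNKT1 from iNKT2. In BALB/c, 5 of the 72 regions were called higher in iNKT2 (15.5% of all regions were) and 7 were called lower (6.36%). On the p alone, 13 were higher (25.7%) and 29 lower (23.4%). The median log2 change was -0.50 over the 72 regions and 0.06 over all regions. In SKG, 5 were called higher (10.2%) and 7 lower (6.96%), 6 passed higher (18.4%) and 19 lower (17.6%), with medians of -0.30 and 0.14. Of the called regions, 3 higher and 5 lower were shared between the genotypes, 3 of 5 and 5 of 7 in each.

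The regions called higher in iNKT2 lay at Tcf4, Id3 and Tcf12, and those called lower at Tcf12, Id3 and Id2. Per gene, BALB/c had 3 higher and 0 lower of 14 at Tcf4, 1 and 4 of 11 at Tcf12, 1 and 2 of 20 at Id3 and 0 and 1 of 16 at Id2. SKG had 3 and 0 at Tcf4, 1 and 3 at Tcf12, 1 and 3 at Id3 and 0 and 1 at Id2. At Tcf3 edgeR called 0 of 11 in either genotype, as did DESeq2, although 5 regions passed lower in BALB/c and 1 in SKG, and 7 and 4 had an unadjusted p under 0.05. Such a p was common, at 61514 of all 94823 regions in BALB/c and 52729 in SKG. The plot of change against distance shows that the called Tcf12 and Tcf4 regions were introns at least 11.2 kb from the start, and that no start region was called.

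**Figure D2:**
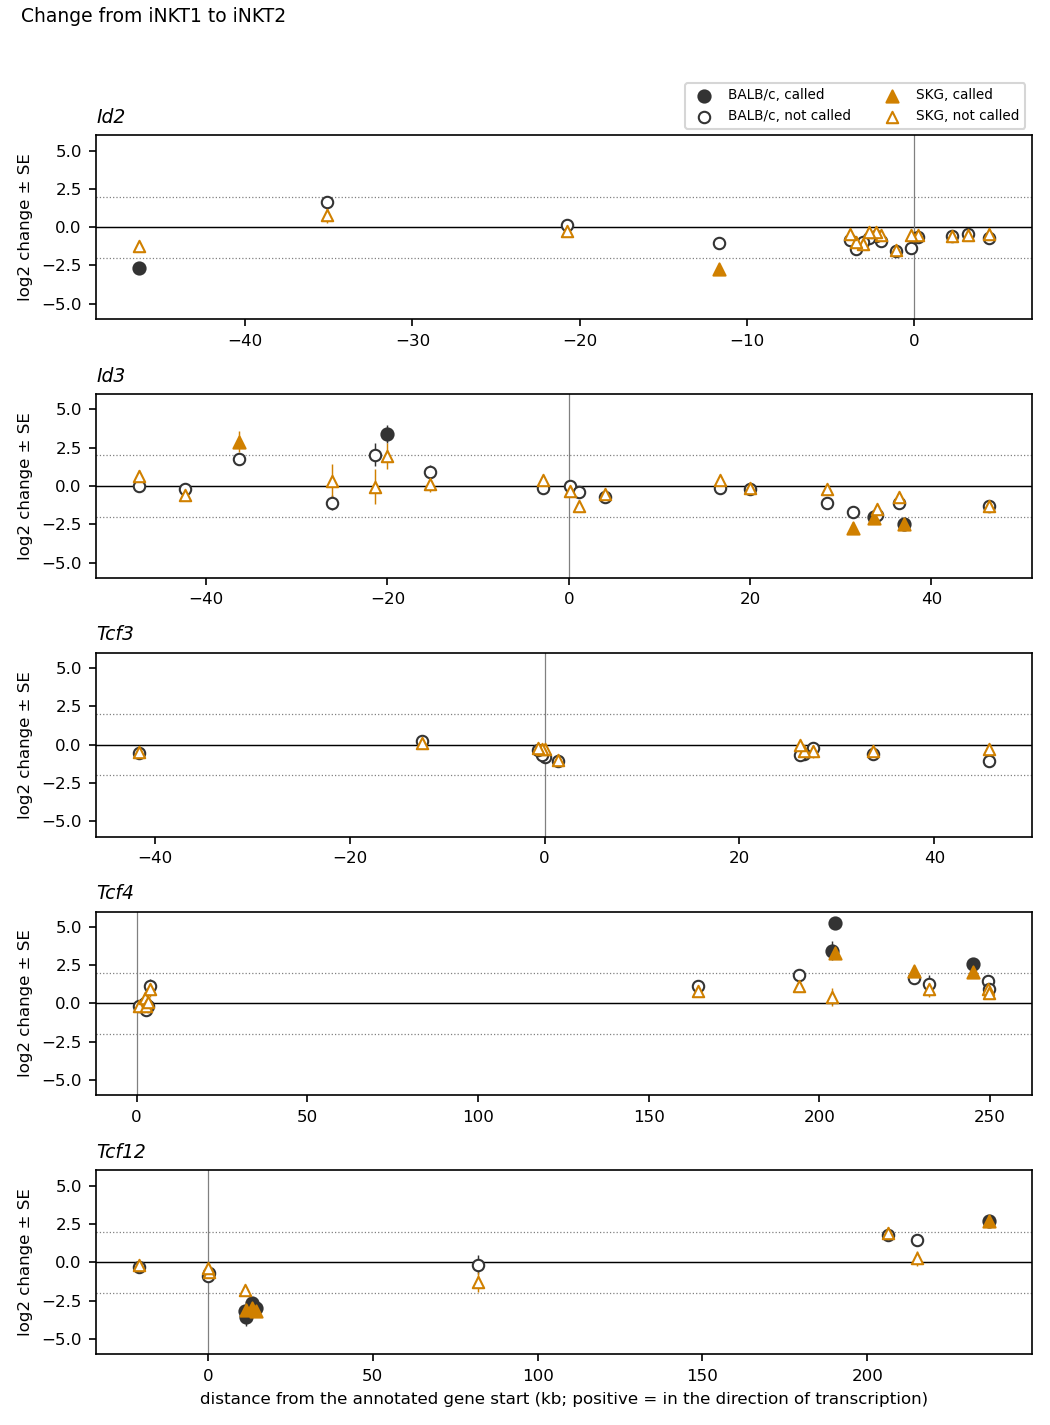
Log2 change from iNKT1 to iNKT2 (vertical axis, edgeR estimate ± SE; dotted lines mark 4-fold) against distance from the gene start in kb (horizontal axis) for the 72 regions in BALB/c (circles) and SKG (triangles); filled symbols are called. At Tcf12 the lower regions sit between +11.2 and +14.4 kb and the called higher region at +237.1 kb; at Tcf4 all called regions lie between +203.6 and +245.1 kb and are higher.

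Tcf12 had 4 neighbouring intronic regions between +11.2 and +14.4 kb that were more open in iNKT1 than in iNKT2. The +14.4 kb region had 26.3 and 22.9 CPM in BALB/c iNKT1, 25.7 and 24.9 in SKG iNKT1, 4.61, 2.59 and 2.23 in BALB/c iNKT2 and 4.49, 2.02 and 1.48 in SKG iNKT2. All iNKT1 libraries were at least 22.9 and all iNKT2 libraries at most 4.61, with replicate 1 the highest in both iNKT2 groups. The log2 change was -2.96 ± 0.33 in BALB/c (adjusted p = 1.8e-06) and -3.16 ± 0.34 in SKG (adjusted p = 1.9e-06), or -3.82 without SKG iNKT2 replicate 1.

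The +13.5 kb region, which holds the T-box and Runt strings printed above, had 16.8 and 15.7 CPM in BALB/c iNKT1, 18.2 and 20.9 in SKG iNKT1, 3.32, 2.41 and 1.90 in BALB/c iNKT2 and 3.83, 1.33 and 1.75 in SKG iNKT2. Again the subsets did not overlap (-2.66 ± 0.31, adjusted p = 2.8e-06 and -3.01 ± 0.32, adjusted p = 1.7e-06), and the SKG change was -3.69 without SKG iNKT2 replicate 1. The +11.6 kb region fell from 13.4 and 12.5 CPM to 1.82, 0.714 and 0.660 in BALB/c (-3.59 ± 0.55, adjusted p = 4.7e-05) and from 11.9 and 10.3 to 2.76, 0.321 and 0.202 in SKG (-3.11 ± 0.57, adjusted p = 3.0e-04). Its spread among the SKG iNKT2 libraries was wide, with replicate 1 far above the others. Without replicate 1 of the iNKT2 group concerned, the change was -4.20 in BALB/c and -5.33 in SKG. The +11.2 kb region fell from 8.75 and 10.3 CPM to 1.25, 0.979 and 0.825 in BALB/c (-3.21 ± 0.30, adjusted p = 3.5e-07). In SKG it passed without the 4-fold change, from 7.26 and 5.20 to 2.47, 1.52 and 1.01 (-1.83 ± 0.30, adjusted p = 1.3e-04), and the difference between the genotypes' changes did not pass (1.38 ± 0.43, adjusted p = 0.085).

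The Tcf12 start region, by contrast, changed by -0.92 ± 0.19 in BALB/c (17.3 and 14.1 CPM in iNKT1 against 8.94, 6.90 and 9.23 in iNKT2, adjusted p = 6.4e-04) and did not pass in SKG (15.6 and 15.1 against 13.5, 11.8 and 9.30, -0.40 ± 0.19, adjusted p = 0.10). At the far end of the gene, the +237.1 kb intronic region went the other way. It had 2.21 and 1.94 CPM in BALB/c iNKT1, 2.44 and 2.05 in SKG iNKT1, 12.9, 14.8 and 13.0 in BALB/c iNKT2 and 17.5, 13.1 and 12.5 in SKG iNKT2. The subsets were separated by a wide gap and the genotypes overlapped (2.70 ± 0.22, adjusted p = 1.1e-07 in BALB/c and 2.68 ± 0.23, adjusted p = 2.5e-07 in SKG). Cgnl1 has the nearest coding start to this region. The +206.2 kb intron passed higher in both genotypes, 1.80 ± 0.37 (adjusted p = 6.0e-04) and 1.91 ± 0.39 (adjusted p = 8.1e-04). Tcf12 thus had iNKT1-open and iNKT2-open introns within a single gene body, and their changes were of opposite sign in both genotypes.

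Tcf4 had no passing change at the region nearest to its annotated start and had introns that were called higher in iNKT2. Its +0.7 kb region, nearest to the annotated start, had 45.0 and 45.4 CPM in BALB/c iNKT1, 47.5 and 53.8 in SKG iNKT1, 31.7, 40.7 and 49.2 in BALB/c iNKT2 and 38.2, 55.6 and 44.8 in SKG iNKT2. The groups overlapped and no change passed (-0.16 ± 0.18, adjusted p = 0.46 in BALB/c, -0.13 ± 0.18, adjusted p = 0.56 in SKG). Per kb of region this start had 74.8 CPM over the 10 libraries, against 57.1 for Id3, 52.3 for Tcf3, 22.8 for Tcf12 and 7.52 for the region nearest to the GENCODE start of Id2 (50.8 for the one that holds its RefSeq start). Other Tcf4 transcripts start in further regions, none of them called. At +249.8 kb, iNKT1 had 4.06 and 3.17 CPM against 6.15, 7.33 and 7.67 in iNKT2 in BALB/c. In SKG the levels were 5.27 and 5.65 against 6.60, 10.5 and 8.90, again without overlap. At +2.7 kb the BALB/c levels went the other way, 11.7 and 10.5 against 6.49, 8.52 and 9.77, and at +2.3 kb the subsets overlapped.

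The +204.6 kb intron of Tcf4 had 0.209 and 0.309 CPM in BALB/c iNKT1, 0.514 and 0.642 in SKG iNKT1, 9.22, 10.3 and 9.44 in BALB/c iNKT2 and 5.32, 6.02 and 5.73 in SKG iNKT2. No group overlapped another. From iNKT1 to iNKT2 it rose by 5.24 ± 0.29 in BALB/c (adjusted p = 5.4e-09) and by 3.29 ± 0.28 in SKG (adjusted p = 2.3e-07). The iNKT2 level was lower in SKG than in BALB/c (-0.76 ± 0.17, adjusted p = 4.2e-03), and the iNKT1 level did not pass (1.19 ± 0.42, adjusted p = 0.17). The difference between the genotypes' subset changes was -1.95 ± 0.46 (adjusted p = 0.028), short of the threshold.

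At +203.6 kb, the neighbouring Tcf4 region was called in BALB/c (0.269 and 0 CPM against 1.29, 2.01 and 1.90, 3.45 ± 0.62, adjusted p = 1.8e-04) and did not pass in SKG (0.771 and 0.513 against 0.981, 0.781 and 0.809, 0.43 ± 0.57, adjusted p = 0.56). The test of that difference missed the threshold (-3.02 ± 0.86, adjusted p = 0.062). Both values rest on 9 insertions in 1 of the BALB/c iNKT1 libraries. The BALB/c change was 2.67 without replicate 2 and 8.41 without replicate 1, which leaves only a library at 0, so that the latter gives no bound. The +245.1 kb intron was called in both, 0.418 and 0.309 against 2.29, 2.20 and 2.27 CPM in BALB/c (2.59 ± 0.34, adjusted p = 9.5e-06) and 0.578 and 0.642 against 2.82, 2.48 and 2.16 in SKG (2.03 ± 0.35, adjusted p = 1.7e-04). In SKG this sat at the edge of the 4-fold limit and fell below it without SKG iNKT1 replicate 1 (1.96) or SKG iNKT2 replicate 1 (1.92), by DESeq2 (1.99) and by voom with or without quantile normalisation (1.5 and 2.00). In BALB/c it fell below the limit by voom with quantile normalisation (1.75). The +227.7 kb intron was called in SKG (0.964 and 0.513 against 2.67, 3.17 and 3.78 CPM, 2.09 ± 0.37, adjusted p = 2.5e-04), but not without SKG iNKT1 replicate 2 (1.71) or SKG iNKT2 replicate 3 (1.97), nor by voom with quantile normalisation (1.64). In BALB/c it passed without the fold (1.64 ± 0.34, adjusted p = 5.6e-04).

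Of the upstream Id3 regions, -20.1 kb was called higher in iNKT2 in BALB/c alone and -36.3 kb in SKG alone. Downstream, 3 regions were called lower in SKG and 2 of these in BALB/c. The other upstream regions did not pass in either genotype and changed in both directions. Their changes ran from -1.10 (-26.1 kb) to 2.04 (-21.3 kb) in BALB/c and from -0.60 (-42.4 kb) to 0.62 (-47.4 kb) in SKG. Id3 had 1 of 20 regions called higher in each genotype, or 5.0%, against 15.5% of all regions in BALB/c and 10.2% in SKG. Its own start region (+0.1 kb) had 20.2 and 20.4 CPM in BALB/c iNKT1, 20.2 and 21.7 in SKG iNKT1, 20.5, 18.9 and 21.3 in BALB/c iNKT2 and 19.4, 15.4 and 14.9 in SKG iNKT2. The changes there did not pass (-0.01 ± 0.15, adjusted p = 0.97 in BALB/c and -0.33 ± 0.15, adjusted p = 0.083 in SKG), with overlapping groups in BALB/c.

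Upstream, the -20.1 kb region had 0.448 and 0.176 CPM in BALB/c iNKT1, 0.128 and 0.257 in SKG iNKT1, 3.86, 3.09 and 3.63 in BALB/c iNKT2 and 1.43, 0.184 and 0.472 in SKG iNKT2. BALB/c iNKT2 lay above every other library, and SKG iNKT2 overlapped SKG iNKT1. The change was 3.40 ± 0.59 in BALB/c (adjusted p = 1.3e-04), or 4.32 without BALB/c iNKT1 replicate 1, and 1.96 ± 0.82 in SKG (adjusted p = 0.059). The -36.3 kb region had 0.956 and 1.23 CPM in BALB/c iNKT1, 0.128 and 0.128 in SKG iNKT1, 3.80, 3.39 and 3.88 in BALB/c iNKT2 and 1.40, 0.321 and 1.21 in SKG iNKT2. It was called in SKG (2.90 ± 0.71, adjusted p = 3.2e-03) on 4 insertions in SKG iNKT1 and passed in BALB/c (1.76 ± 0.40, adjusted p = 1.3e-03). The SKG call was lost without SKG iNKT1 replicate 1 (2.90) or 2 (2.90) or SKG iNKT2 replicate 1 (2.42), by voom (1.42 and 2.48) and in a fit of only the SKG groups (2.85).

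Downstream, the called regions lay inside the gene E2f2, a cell cycle regulator whose start is nearer to them than that of Id3, so that the table does not tie them to either gene. The +37.0 kb region, which holds a T-box string, had 17.4 and 24.0 CPM in BALB/c iNKT1, 31.9 and 30.3 in SKG iNKT1, 3.39, 4.05 and 3.88 in BALB/c iNKT2 and 8.14, 3.63 and 4.11 in SKG iNKT2. iNKT1 was far above iNKT2 in both genotypes (-2.45 ± 0.26, adjusted p = 1.5e-06 and -2.51 ± 0.26, adjusted p = 1.6e-06), and SKG iNKT2 replicate 1 was the highest iNKT2 library. The +33.7 kb region was called at the edge of the limit in both (-2.05 ± 0.32, adjusted p = 5.0e-05 and -2.09 ± 0.33, adjusted p = 7.6e-05). It fell short of 4-fold without BALB/c iNKT1 replicate 1 (-1.84) or BALB/c iNKT2 replicate 2 (-1.81) in BALB/c and without SKG iNKT1 replicate 1 (-1.94) or SKG iNKT2 replicate 2 (-1.87) in SKG, and in both without TMM (-1.77 and -1.90). The +31.3 kb region was called in SKG (4.11 and 3.85 CPM against 0.773, 0.230 and 0.742, -2.75 ± 0.38, adjusted p = 2.5e-05) and passed in BALB/c (-1.69 ± 0.36, adjusted p = 7.5e-04).

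Id2 passed lower in iNKT2 at and just above its start, with changes under 4-fold close to the gene and called regions far upstream. The +0.3 kb region, 1 of 3 in the gene body, holds the RefSeq start and had 113 and 101 CPM in BALB/c iNKT1, 127 and 115 in SKG iNKT1, 71.5, 66.7 and 70.0 in BALB/c iNKT2 and 83.4, 90.9 and 86.0 in SKG iNKT2. The subsets did not overlap (-0.63 ± 0.12, adjusted p = 2.9e-04 in BALB/c and -0.48 ± 0.12, adjusted p = 3.3e-03 in SKG). The -0.2 kb region, nearest to the GENCODE start, was a small peak with 5.44 and 5.25 CPM against 1.82, 2.54 and 1.98 in BALB/c (-1.33 ± 0.22, adjusted p = 1.1e-04), and 4.88 and 4.23 against 3.12, 2.94 and 3.84 in SKG, which did not pass (-0.48 ± 0.24, adjusted p = 0.11). The -1.1 kb region fell from 61.7 and 59.1 CPM to 21.0, 17.5 and 23.6 in BALB/c (-1.55 ± 0.14, adjusted p = 3.1e-07) and from 70.2 and 63.6 to 25.7, 22.4 and 21.7 in SKG (-1.52 ± 0.14, adjusted p = 5.5e-07).

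Far upstream of Id2, the -46.4 kb region had 4.48 and 5.91 CPM in BALB/c iNKT1, 2.44 and 2.18 in SKG iNKT1, 0.753, 1.06 and 0.577 in BALB/c iNKT2 and 1.10, 0.781 and 1.01 in SKG iNKT2. It was called in BALB/c (-2.66 ± 0.29, adjusted p = 1.7e-06) and passed in SKG (-1.25 ± 0.33, adjusted p = 5.1e-03). The -11.7 kb region, with 2 CAGGTG E-boxes in its central 300 bases, had 1.76 and 1.94 CPM in BALB/c iNKT1, 4.56 and 5.84 in SKG iNKT1, 1.07, 0.688 and 0.907 in BALB/c iNKT2 and 0.773, 0.643 and 1.01 in SKG iNKT2. SKG iNKT1 was above all other libraries. It was called in SKG (-2.71 ± 0.31, adjusted p = 3.5e-06) and passed in BALB/c (-1.06 ± 0.31, adjusted p = 6.8e-03). In iNKT1 its genotype change of 1.49 ± 0.32 (adjusted p = 0.011) and the interaction of -1.64 ± 0.44 (adjusted p = 0.048) did not pass. Id2 thus had a different called region in each genotype, and neither difference between genotypes passed.

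Tcf3 had no called region, and the values near its start were as follows. Its start region had 31.0 and 32.0 CPM in BALB/c iNKT1, 32.4 and 28.4 in SKG iNKT1, 17.3, 17.7 and 19.0 in BALB/c iNKT2 and 27.9, 23.7 and 23.4 in SKG iNKT2. It fell by 0.81 ± 0.14 on the log2 scale in BALB/c (adjusted p = 1.0e-04). In SKG the change was -0.28 ± 0.14 (adjusted p = 0.11). The region with the smallest p in SKG, at +33.7 kb and holding the start of Mbd3, fell from 153 and 156 CPM to 114, 115 and 119.6 (-0.41 ± 0.11, adjusted p = 7.9e-03). It passed in BALB/c as well (-0.58 ± 0.11, adjusted p = 4.2e-04).

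**Figure D3:**
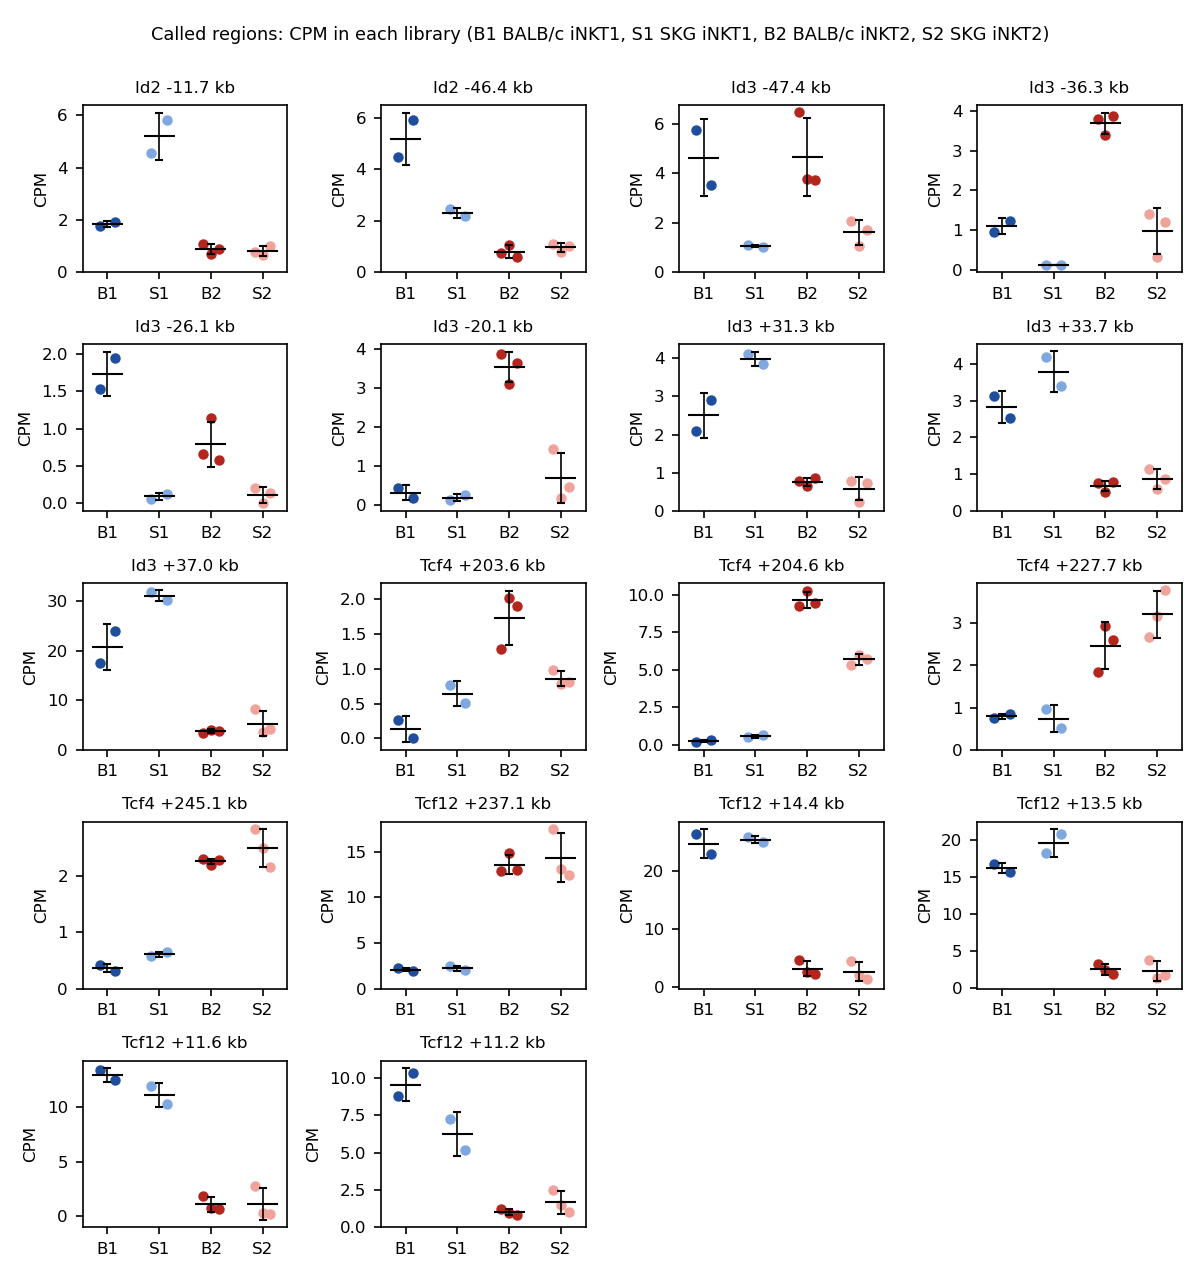
CPM (vertical axes, scaled per panel) of the 18 regions called in at least 1 comparison, in each library of the 4 groups; points are libraries, lines means and bars SD (n = 2 for iNKT1 groups, n = 3 for iNKT2 groups). The Tcf12 regions at +11.2 to +14.4 kb are high in iNKT1 of both genotypes, the Tcf12 +237.1 kb and Tcf4 regions in iNKT2, and the Id3 -20.1 and -36.3 kb regions in BALB/c iNKT2.

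The comparison of genotypes asks how SKG differed from BALB/c within each subset, and at these genes all called regions lay upstream of Id3. In iNKT1, 0 of 72 regions were called higher (0.281% of all regions were) and 2 lower (0.732%), with the same numbers on the p alone (0.662% and 1.42%) and 0 and 2 called by DESeq2. An unadjusted p under 0.05 was found at 10 of the 72, and at 16196 of all 94823 regions. In iNKT2, 0 were called higher (0.252%) and 2 lower (4.73%), and 0 passed higher (4.02%) and 9 lower (10.1%), with 0 and 2 called by DESeq2. An unadjusted p under 0.05 was found at 25 of the 72, and at 35536 of all 94823 regions. Upstream of Id3 also lay 5 of the 9 regions that passed lower in iNKT2. In iNKT2 the shares of the 72 regions were near the background. The medians of the 72 regions were 0.04 in iNKT1 and 0.16 in iNKT2, against -0.03 and 0.01 over all regions.

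Upstream of Id3, 5 regions between -47.4 and -20.1 kb were lower in SKG iNKT2, and 2 of these also in SKG iNKT1. The -26.1 kb region had 1.52 and 1.94 CPM in BALB/c iNKT1, 0.0642 and 0.128 in SKG iNKT1, 0.659, 1.14 and 0.577 in BALB/c iNKT2 and 0.208, 0 and 0.135 in SKG iNKT2. No SKG library reached a BALB/c library of the same subset. It was the region called in both subsets (-4.09 ± 0.83, adjusted p = 8.6e-03 in iNKT1 and -2.64 ± 0.62, adjusted p = 5.8e-03 in iNKT2). The iNKT1 value rests on 95 insertions in BALB/c and 3 in SKG, a ratio of 18 per library total with an exact 95% interval of 5.97 to 88.7 that covers counting error only. Its iNKT1 call was lost without any 1 of the 4 iNKT1 libraries (-3.70 to -4.65) or without BALB/c iNKT2 replicate 2 (-4.07) or 3 (-4.07) or SKG iNKT2 replicate 3 (-4.10). Its iNKT2 call was lost without BALB/c iNKT1 replicate 1 (-2.68) or 2 (-2.65), BALB/c iNKT2 replicate 2 (-2.33) or SKG iNKT2 replicate 2 (-2.11) or 3 (-2.68), and the value was -3.74 without SKG iNKT2 replicate 1. Voom called it in neither subset (-2.79 and -3.78 in iNKT1, -2.15 and -3.01 in iNKT2), nor did the totals without TMM in iNKT1 (-4.12) or a fit of only the iNKT2 groups (-2.66).

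The -47.4 kb region, nearest to the start of the ribosomal protein gene Rpl11, had 5.73 and 3.53 CPM in BALB/c iNKT1, 1.09 and 1.03 in SKG iNKT1, 6.46, 3.78 and 3.71 in BALB/c iNKT2 and 2.08, 1.06 and 1.69 in SKG iNKT2. The genotypes did not overlap in either subset, and the subsets overlapped in BALB/c. It was called in iNKT1 (-2.13 ± 0.41, adjusted p = 6.1e-03) and passed in iNKT2 (-1.51 ± 0.30, adjusted p = 1.8e-03). The iNKT1 call was lost without any 1 of the 4 iNKT1 libraries (-1.72 to -2.43) or without BALB/c iNKT2 replicate 2 (-2.11) or 3 (-2.11), by voom (-1.69 and -2.09) and without TMM (-2.17). The 2 calls in iNKT1 therefore went to 0 without each of these 6 libraries.

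The -20.1 kb region, whose libraries are given above, was called lower in SKG iNKT2 (-2.20 ± 0.45, adjusted p = 2.4e-03), but not without SKG iNKT2 replicate 2 (-1.76) or 3 (-2.02), and at -3.50 without replicate 1. In iNKT1, where 19 insertions in BALB/c and 6 in SKG were counted, its change was -0.76 ± 0.96 (adjusted p = 0.78). The -36.3 kb region was lower in SKG iNKT2 (-1.89 ± 0.36, adjusted p = 1.2e-03) and had an iNKT1 change of -3.03 ± 0.73 (adjusted p = 0.024). The -42.4 kb region was lower in SKG iNKT2, from 19.2, 16.3 and 14.8 CPM to 11.7, 5.51 and 6.34 (-1.07 ± 0.23, adjusted p = 3.3e-03), and had an iNKT1 change of -0.67 ± 0.28 (adjusted p = 0.22). These are all low or moderate peaks, and the lower SKG values stood on 9 to 118 insertions in SKG iNKT2 for all but the -42.4 kb region. Leaving out SKG iNKT2 replicate 2, edgeR called 0 of the 72 regions lower in SKG iNKT2. It called 1 without either BALB/c iNKT1 library, without BALB/c iNKT2 replicate 2 or without SKG iNKT2 replicate 3.

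The other regions that passed lower in SKG iNKT2 lay in Id3 itself and at Id2, Tcf12 and Tcf4. They were Id3 +1.1 kb in an untranslated part of the gene (5.52, 4.87 and 6.02 CPM against 3.51, 2.85 and 2.29, -0.89 ± 0.20, adjusted p = 4.3e-03), Id2 -35.1 kb (2.10, 2.57 and 1.73 against 0.832, 0.827 and 0.472, -1.54 ± 0.37, adjusted p = 6.0e-03), Tcf12 +215.1 kb (2.16, 1.72 and 1.48 against 0.743, 0.413 and 0.674, -1.54 ± 0.35, adjusted p = 4.9e-03) and the Tcf4 +204.6 kb intron. In each the BALB/c and SKG iNKT2 libraries did not overlap. The Tcf3 start region had the smallest p at Tcf3 and was higher in SKG iNKT2 without passing in the fit of all libraries (0.48 ± 0.12, adjusted p = 0.010). It passed in the paired fit, whose pairs were taken from these same data, without the 4-fold change (0.48, adjusted p = 2.1e-03).

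**Figure D4:**
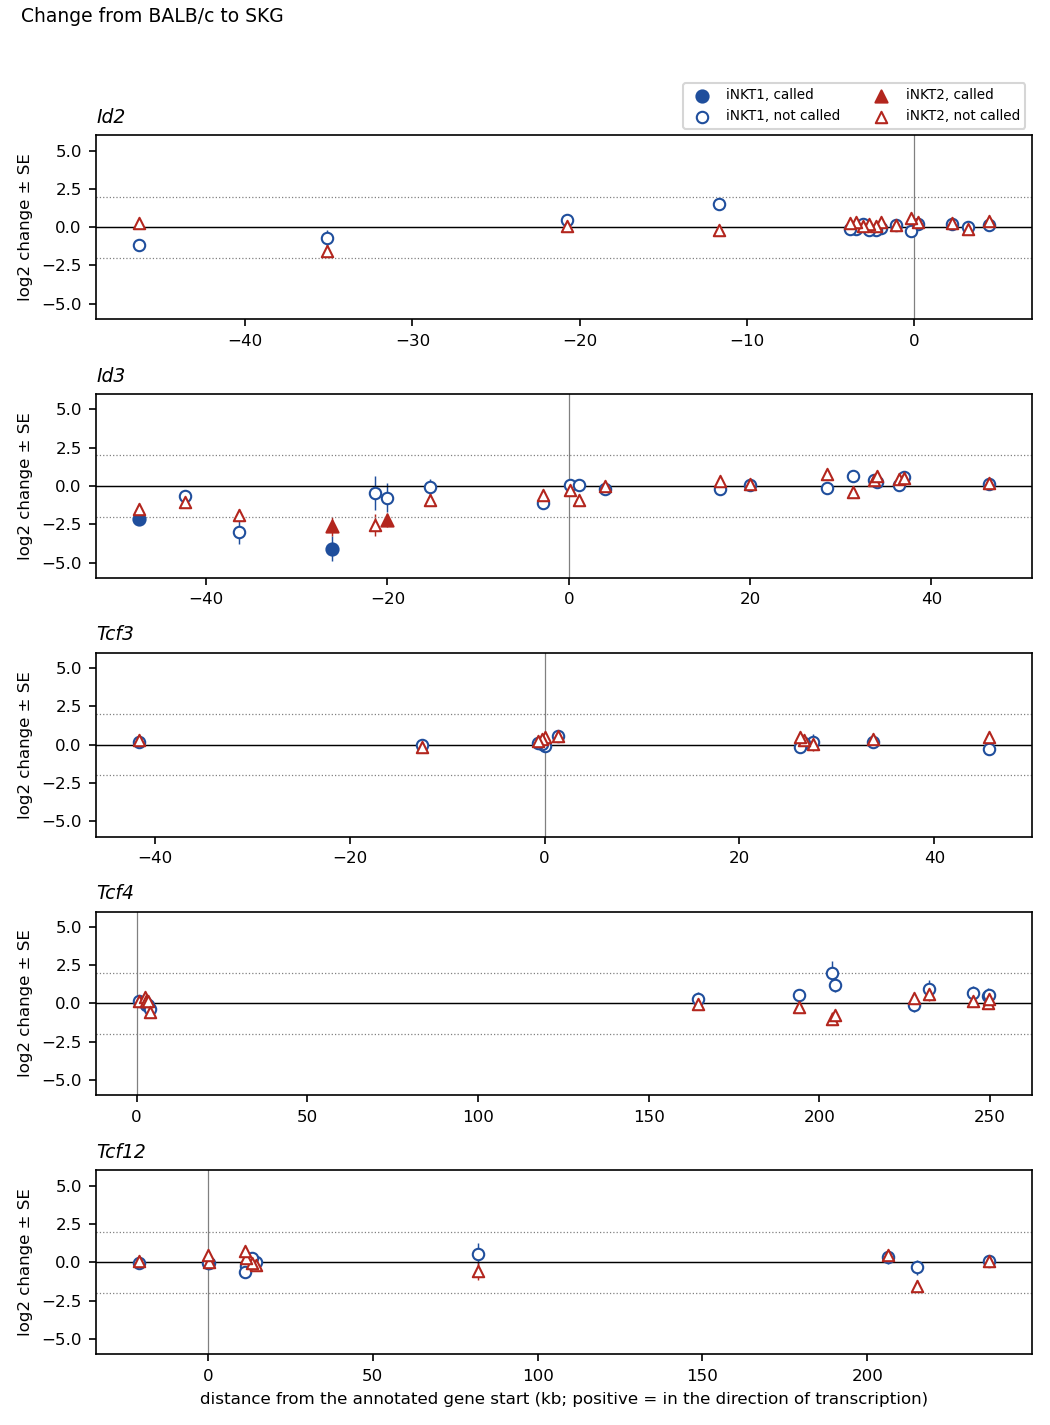
Log2 change from BALB/c to SKG (vertical axis, edgeR estimate ± SE; dotted lines mark 4-fold) against distance from the gene start in kb (horizontal axis) for the 72 regions in iNKT1 (circles) and iNKT2 (triangles); filled symbols are called. The filled symbols, 2 in each subset, all lie upstream of Id3 between -47.4 and -20.1 kb.

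A genotype change that differed between the subsets was not called. The interaction gave 0 of 72 regions higher (0.189% of all regions were called) and 0 lower (0.341%), and DESeq2 also called 0 in each direction. An unadjusted p under 0.05 was found at 10 of the 72, and at 18812 of all 94823 regions. For the Id3 -26.1 kb region it was 1.45 ± 1.20 (adjusted p = 0.54) and for the -47.4 kb region 0.62 ± 0.52 (adjusted p = 0.54). The Tcf4 +204.6 kb region had the value given above, -1.95. Without replicate 1 of both iNKT2 groups, 1 region was called lower.

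Other genes of the pathway are described by counts of called regions, to be read against the 15.5% of all regions called higher and the 6.36% called lower in BALB/c iNKT2, and the 10.2% and 6.96% in SKG. The share called higher was no greater than these in each of the 5 lists and in both genotypes. The share called lower was greater for Id1 and Id4 in both genotypes (2 of 12 in BALB/c and 1 of 12 in SKG). It was also greater for the E-box zinc-finger repressors in BALB/c (6 of 71), and not in the remaining lists. Of 12 regions at Id1 and Id4, 1 was called higher in BALB/c iNKT2 than in iNKT1 and 2 lower, and in SKG 0 and 1. Of 58 regions at related basic helix-loop-helix genes (Tal1, Tal2, Lyl1, Ascl2, Bhlhe40 and Bhlhe41, with none at Msc), 9 were higher and 3 lower in BALB/c, and 5 and 2 in SKG. Bhlhe41, a transcriptional repressor, held 7 of the 9 and 4 of the 5, and was singled out after its values were seen. Bhlhe40, its relative, had 0 higher and 2 lower of 8 in BALB/c. Of 71 regions at the E-box zinc-finger repressors Zeb1, Zeb2, Snai1, Snai2 and Snai3, 7 were higher and 6 lower in BALB/c and 3 and 3 in SKG.

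Cofactors of E protein complexes (Cbfa2t2, Cbfa2t3, Runx1t1, Ldb1, Lmo2, Ep300 and Crebbp) had 8 higher and 2 lower of 66 regions in BALB/c, and 5 and 2 in SKG. Among 149 regions at genes known as E protein targets (Ptcra, Rag1, Rag2, Cd4, Bcl2l1, Cxcr5, Il7r, Socs1 and Socs3), 12 were higher and 9 lower in BALB/c and 11 and 7 in SKG. Around Rag1 and Rag2, which encode the recombinase and whose windows share regions, 4 of 9 and 5 of 8 were higher in BALB/c iNKT2, and 4 and 4 were lower in SKG than in BALB/c iNKT2, also singled out afterwards. Between genotypes, the lists had at most 1 region called in either direction in iNKT1, and in iNKT2 the counts of higher and lower regions were 0 and 0 for the other Id genes, 0 and 0 for the related factors, 0 and 1 for the zinc-finger repressors, 0 and 2 for the cofactors and 1 and 5 for the targets, where 0.252% and 4.73% of all regions were called.

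By Pearson's r of the log2 level of start regions over the 10 libraries, the genes most like each member were Slc25a45 (0.987), Mtf2 (0.984) and Cflar (0.969) for Id2, Ankrd29 (0.938), Fgf18 (0.912) and Adamtsl2 (0.908) for Id3, Stk38 (0.994), Bag5 (0.993) and Apopt1 (0.993) for Tcf3, Opa1 (0.984), Pnpt1 (0.977) and Zmynd11 (0.975) for Tcf4 and Lsm2 (0.986), Ranbp9 (0.985) and Cdk5rap3 (0.985) for Tcf12. The annotated starts of Id2, Id3 and Tcf4 lie in no region, so the nearest region was used for them. For Id2 this was the small peak at -0.2 kb and not the +0.3 kb region that holds its RefSeq start. The search covered 10868 or 10869 genes with a region at their start. The 10 libraries fall into 4 groups and each library's depth is shared by all genes, so these values only rank the genes.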

How the data were processed

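ATAC-seq was performed on sorted thymic iNKT1 and iNKT2 cells of BALB/c and SKG mice. The authors trimmed reads that failed to align with Trim Galore, aligned with Bowtie 1.0 to mm10, removed mitochondrial reads and duplicates (Picard), called summits per replicate with MACS2, merged the expanded summits and counted transposase insertions. The deposited table holds these counts per region as whole numbers that sum to a different total in each library, so it was treated as raw although its name speaks of normalisation. Its regions are 300 to 7709 bp wide (median 343), and many are narrower than the uniform expansion of summits that the methods describe, so the stated merging may not be the exact source of these regions; coordinates were used as deposited. Versions not named here are not given in the sources used here.

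Levels were divided by the library total times its TMM factor (0.893 to 1.19). All 94823 regions were fitted in edgeR 4.0.16 (R 4.3.3) by the quasi-likelihood test, with 1 mean per group over the 10 libraries and Benjamini-Hochberg adjustment in each contrast. The contrasts were iNKT2 minus iNKT1 in each genotype, SKG minus BALB/c in each subset, and their interaction. Insertions summed per gene were tested in the same way across 18088 genes. The region fit was also run on simulated counts, with changes placed only in SKG iNKT2 at better-covered regions and a 2-fold limit. The 4-fold rule, the gene sums and changes at regions with few insertions were therefore not tested by it. The alternatives were library totals without TMM, limma 3.58.1 with voom (the authors' approach, with and without quantile normalisation), DESeq2 1.42.0, a filter below the lower quartile of mean insertions (36.2), a fit of only the groups compared, a looser threshold (adjusted p under 0.05, 2-fold), windows of 100 kb or from any transcript start, each library left out, and the replicate number as a block. The 5 genes, the windows and the lists were chosen with earlier results of these data known. Some genes of the lists are not reported here and were left out of the counts.

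Same-numbered BALB/c and SKG iNKT2 libraries deviated together from their group means (r = 0.517, 0.181 and 0.224) and were treated as pairs in the blocked fit of that contrast. Some crossed pairs were as high (0.308), and between the iNKT1 groups r was -0.00937. Between the BALB/c subsets, same-numbered libraries had r of 0.161 and 0.119. The pairing thus comes from the data and not from the labels. Regions were named if they lay nearest to a start or had the smallest adjusted p of a gene in a contrast and direction. The other called regions, and those that passed lower in SKG iNKT2, were named after their values were seen.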

Additional observations from a re-analysis of the deposited data

How the results depend on the processing

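No result that passed changed its direction under an alternative. Of the sums that did not pass between genotypes, 4 took both signs with single libraries left out, Tcf12 (-0.11 to 0.21) and Tcf4 (-0.03 to 0.19) in iNKT2, which also turned below 0 without TMM and by DESeq2, and Tcf12 (-0.09 to 0.07) and Id3 (-0.04 to 0.00) in iNKT1. Of the comparisons with named regions, 659 kept their side of the threshold, 54 lost it and 3 gained it. All calls at Tcf12, at Tcf4 +204.6 kb, at Id3 +37.0 kb and at Id2 -46.4 and -11.7 kb were kept under every alternative run. Few insertions stand behind some values, 3 to 6 in SKG iNKT1 at Id3 -26.1, -36.3 and -20.1 kb and 9 in BALB/c iNKT1 at Tcf4 +203.6 kb. Where a call was lost, the cause was not tested.

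Counts of called regions moved as follows. Without TMM, which shifts the median of all regions from 0.06 to 0.34 in the BALB/c subset contrast and from 0.14 to 0.32 in the SKG one, 8 regions were higher in BALB/c iNKT2 and 0 were lower in SKG iNKT1. Voom called 3 regions higher in SKG iNKT2, or 2 with quantile normalisation, and 0 lower in SKG iNKT1 both ways. The quartile filter left 1 region lower in SKG in each subset, and a fit of only the iNKT2 groups left 1 in iNKT2. At the looser threshold the counts were 15 higher and 18 lower for the subsets in BALB/c, 14 lower in SKG, 1 higher and 5 lower in SKG iNKT1, 8 lower in SKG iNKT2 and 2 lower in the interaction. Windows of 100 kb held 12 lower regions in BALB/c and 11 in SKG. With single libraries left out, the ranges were 5 to 7 higher and 6 to 8 lower in BALB/c iNKT2, 3 to 7 higher and 6 to 9 lower in SKG iNKT2 (3 without SKG iNKT1 replicate 2 or SKG iNKT2 replicate 1), and 0 to 3 lower in SKG in each subset. The SKG iNKT1 count was 1 without SKG iNKT2 replicate 3. Leaving out replicate 1 of both iNKT2 groups, an alternative chosen after seeing the data, gave 1 lower in the interaction, against 0 with all libraries.

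Of the summed changes from iNKT1 to iNKT2, those in BALB/c were -0.39 for Id3, -0.35 for Tcf3, 0.56 for Tcf4 and -0.65 for Tcf12 without TMM, where Tcf4 passed and the others did not. DESeq2 gave -0.41 for Id3 and 0.54 for Tcf4, likewise. In SKG they were -0.71 for Id3, -0.19 for Tcf3 and -0.63 for Tcf12 without TMM and -0.23 for Tcf3 by DESeq2, none passing. The Tcf3 change between genotypes in iNKT2 did not pass without TMM (0.24) or by DESeq2 (0.21). With single libraries left out, the BALB/c changes ran from -0.74 to -0.56 for Id3 and from -1.0 to -0.82 for Tcf12. The SKG changes ran from -1.11 to -0.80 for Id3, -0.41 to -0.33 for Tcf3 and -1.02 to -0.70 for Tcf12. The iNKT2 genotype changes ran from -0.45 to -0.15 for Id3 and 0.31 to 0.39 for Tcf3.

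The replicate block was fitted on the groups compared, leaving 1 residual degree of freedom in the pairwise contrasts (2 between the iNKT2 groups), so its p-values there lean on the spread shared across regions. With the block, 6 regions were higher and 7 lower for the subsets in BALB/c, 4 and 7 in SKG, 0 and 3 in SKG iNKT1, 0 and 3 in SKG iNKT2, and 0 and 0 in the interaction. The iNKT2 genotype sums of Id2 (0.21) and Id3 (-0.26) passed. Between the SKG subsets, same-numbered libraries had r of 0.00321 and -0.0131. There the changes of the Tcf3 sum (-0.35, adjusted p = 0.10), Id3 -36.3 kb (2.53, adjusted p = 0.028), Tcf4 +227.7 kb (1.96, adjusted p = 6.4e-05) and Tcf3 +33.7 kb (-0.45, adjusted p = 0.17) were not called or did not pass. The interaction compares all 4 groups, so its block was fitted on all 10 libraries, and a separate fit of only the groups compared was not possible there.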
